A study of Mus musculus with 2 samples.

Results

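The AP-1 genes described here were Fos, Fosb, Fosl1, Fosl2, Jun, Junb, Jund and Atf3. They were taken by gene symbol from the probes of 2 dual-color Agilent arrays, which gave 8 of 28233 genes and 9 of 39429 probes. Both arrays came from an immortalized mouse embryonic fibroblast (MEF) line of the background C57BL/6 x B6:129 Ola. The line carries Rosa26ERT2 Cre, a recombinase that tamoxifen switches on, together with a floxed THOC5 gene (flox/flox). Control cells, labelled wildtype, carried the same alleles and had no tamoxifen. THOC5-depleted cells, labelled THOC5 knockdown, had 2 d of tamoxifen by the labels. The cell culture methods describe a shorter exposure, followed by growth medium and then serum starvation, so the length of exposure is uncertain. Tamoxifen itself, the active recombinase and the loss of THOC5 cannot be told apart. On each array, unstimulated cells were labelled with Cy3 and cells given serum (FCS) for 1 h were labelled with Cy5. Serum and dye can likewise not be told apart, since an array with swapped dyes was not part of the data used here. There was 1 array per condition and therefore no replicate error, no test and no p-value for any difference given below.

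AP-1 is a dimeric transcription factor. Its subunits are basic leucine zipper (bZIP) proteins: Jun proteins pair with each other or with Fos proteins, and Fos proteins need a Jun partner to bind DNA. Atf3 belongs to the related ATF/CREB branch and can pair with Jun proteins. In quiescent fibroblasts, serum reaches several of these genes through the MAP kinases and through serum response factor (SRF) with its ternary complex partners, and their mRNAs appear as immediate early genes without new protein synthesis. THOC5 is a subunit of the THO complex within TREX, which links transcription to processing and export of mRNA.

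Promoter sequences are given to show which response elements lie close to the starts of the members. RefSeq sequence (build GRCm38.p6, from 250 bases before to 50 bases after the annotated start) was matched for 7 of the 8 members, Fosl1 being the one without an entry in the table used. Several short motifs were searched. On both strands these were TGACG (the core of the cAMP response element, CRE), TGANTCA (the AP-1 site), the CArG box bound by SRF, the MEF2 box and CCAAT, and on the strand of the gene it was TATAAA. The lines below give the 120 bases before the start, 5′ to 3′ on the strand of the gene, for the 5 members with a match there. Motif matches are in capitals.
Fos: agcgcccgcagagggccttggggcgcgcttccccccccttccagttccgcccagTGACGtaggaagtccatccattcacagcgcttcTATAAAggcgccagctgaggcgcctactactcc
Fosb: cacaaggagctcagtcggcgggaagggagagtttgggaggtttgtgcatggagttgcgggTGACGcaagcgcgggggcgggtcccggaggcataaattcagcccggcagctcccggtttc
Junb: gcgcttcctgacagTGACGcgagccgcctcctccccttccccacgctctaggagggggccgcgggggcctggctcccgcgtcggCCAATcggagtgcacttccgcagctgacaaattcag
Atf3: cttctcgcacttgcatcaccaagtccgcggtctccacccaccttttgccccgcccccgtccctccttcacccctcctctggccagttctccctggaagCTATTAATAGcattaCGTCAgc
Jun: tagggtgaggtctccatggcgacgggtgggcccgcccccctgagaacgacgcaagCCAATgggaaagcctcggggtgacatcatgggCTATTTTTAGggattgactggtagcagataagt
These windows are chr12:85473770-85473889 on the plus strand for Fos, chr7:19310046-19310165 on the minus strand for Fosb, chr8:84978749-84978868 on the minus strand for Junb, chr1:191183334-191183453 on the minus strand for Atf3 and chr4:95052223-95052342 on the minus strand for Jun.

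TGACG was present in 4 of the 7 windows of 300 bases, and 20.8% of the 32851 RefSeq promoters of that length held it. Counted from the start, where the base just before it is -1, TGACG began at -66 in Fos, with a further match at -129, outside the stretch printed. It began at -60 in Fosb and at -106 in Junb. Atf3 had it on the opposite strand (CGTCA in the line above), from -7. A MEF2 box was found in Jun and in Atf3, against 0.557% of all promoters. CCAAT was found in Jun, Junb and Atf3 (37.4% of all promoters), and TATAAA in Fos and Junb (8.32%). The CCAAT of Atf3 (bases 6 to 10) and the TATAAA of Junb (bases 1 to 6) lay at or after the annotated start, outside the lines printed. TGANTCA and the CArG box were in none of the 7 windows (7.81% and 1.63% of all promoters), and Fosl2 and Jund had no match to any of the motifs. No overlap between matches of different motifs occurred in the lines printed. A match says only that these letters are present, and the lack of one says only that they are absent from the window. Bases further upstream were not searched, and neither were other forms of these motifs. The Jun line, for example, holds tgacatca, which neither TGANTCA nor TGACG can match. The lack of a match therefore does not show that a gene has no site for SRF or AP-1.

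**Figure D1:**
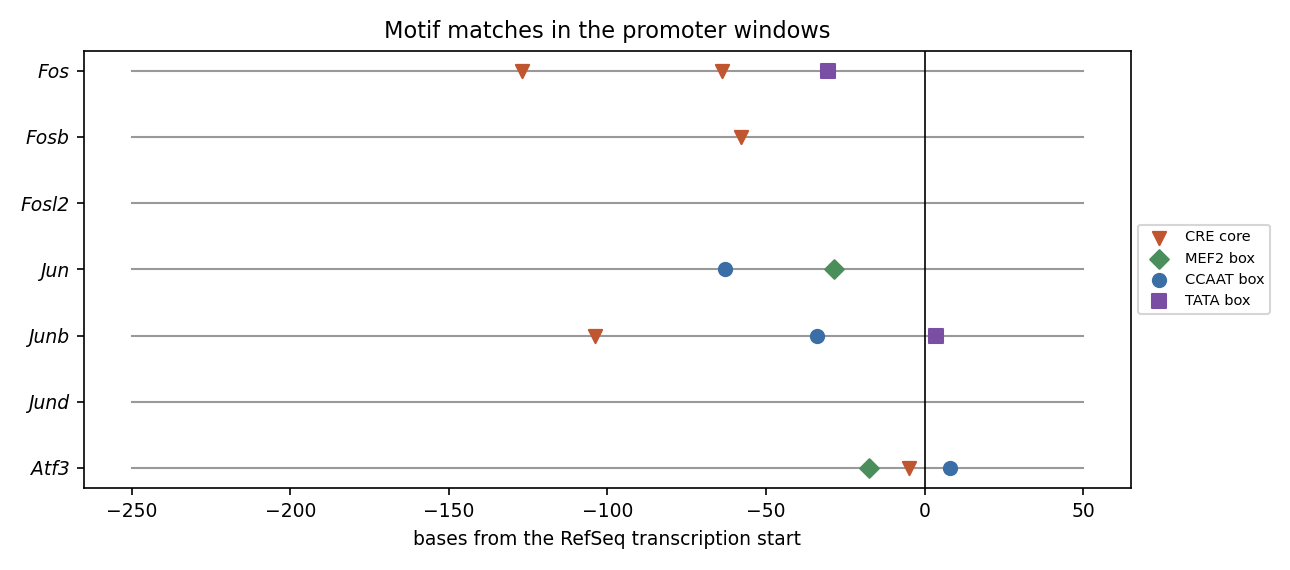
Motif matches in the 7 promoter windows, with bases from the RefSeq start on the horizontal axis and 1 line per gene; each symbol marks the centre of a match. The CRE core TGACG lies in Fos, Fosb, Junb and Atf3, and the lines of Fosl2 and Jund are empty.

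The deposited values were processed signals, which are background-subtracted fluorescence intensities with the dyes normalized within the array, and dividing Cy5 by Cy3 gave the serum ratio. On the 4 channels, 62.1% to 64.4% of the 43020 spots were well above background, no spot was saturated, and all 9 probes of the members were well above background in all 4 channels. Thoc5 itself had signals of 4808 and 3047 in unstimulated and stimulated control cells and of 546 and 455 in THOC5-depleted cells. Of 12 fibroblast markers, 11 were well above background in all channels, with summed signals of 470700 and 430300 in unstimulated and stimulated control cells and of 388800 and 347300 after depletion. Between the unstimulated channels (quantile normalization of mean signals), 3 of these 11 were at least 2-fold lower after depletion, Fap at -1.67, Pdgfra at -1.28 and Col3a1 at -1.13 on the log2 scale, and none was 2-fold higher. After serum, Fap was 2-fold or more lower (-1.79) and the other 10 were not. These genes were named after their values were seen. Summed signals of epithelial (126 to 226), leukocyte (425 to 570) and endothelial (887 to 1136) markers were low. Cdh1, Lyz2 and Tek were not well above background in any channel, and none of these markers was listed at 0. Lum and Epcam were well above background in control cells alone and Ptprc and Cd68 in THOC5-depleted cells alone, and the part of such differences in the results below was not tested. Repeat spots gave the precision within an array. Probes printed as 10 spots varied in log2 ratio with a median SD of 0.027 in control cells and 0.030 after depletion. Combined for a difference between the arrays, these spot SDs gave 0.041. This value covers the spread between spots of an array and holds no error between arrays, such as labelling or hybridization. Spike-in RNAs, added in known amounts, had log2 ratios that exceeded those of the control array by a mean of 0.25 on the other array (0.15 to 0.35 over 10 probes).

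In control cells, most AP-1 genes had more RNA after serum, and the ratios spanned a wide range from Fos to Jund. The serum ratio was 2 or more for 7 of the 8 genes, against 2.89% of the 18770 genes tested (those well above background in at least 1 channel). It was above 4 with a Cy5 signal above 200, the first steps of the filter in the study's methods, for 4 genes (Fos, Fosb, Junb and Atf3), against 0.495% of all genes. The last step of that filter, annotation in Ingenuity Pathway Analysis, was not applied here. Over the 8 members the median serum ratio was 4.67, or 2.22 on the log2 scale, where the median of all genes tested was -0.03. In THOC5-depleted cells, 5 members had a ratio of 2 or more (1.22% of 18531 genes), the same 4 members passed the filter (0.151%), and the median ratio was 3.49. No member had a ratio of 0.5 or less on either array (2.29% and 0.626% of genes). The members that passed the filter changed with the processing. With another background correction and dye normalization (normexp and loess) 3 passed after depletion, Junb being at 1.96 on the log2 scale. When each array was given an equal spread of log ratios, 3 passed in control cells, without Atf3 (1.84), and 5 after depletion, where Jun (2.16) joined. Without dye normalization, where the median log2 ratio of all genes was 0.82 and 0.75 on the 2 arrays, 7 members passed the filter in control cells and all 8 reached a ratio of 2 after depletion. In RNA from whole cultures, a change in the number of responding cells and a change in the RNA per cell cannot be told apart.

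Among the 11846 genes with a Cy5 signal above 200 in control cells, Fos had the highest serum ratio, Fosb ranked 9 and Junb ranked 19. Atf3 ranked 57, Fosl1 105, Jun 149, Fosl2 180 and Jund 2646. Among 11534 such genes in THOC5-depleted cells, Fos again ranked 1, followed by Fosb at 5, Junb at 20, Atf3 at 28, Jun at 48, Fosl1 at 156, Fosl2 at 213 and Jund at 229. Fos, Fosb, Junb and Atf3 thus kept the same order, Jun moved ahead of Fosl1, and Jund moved up. Without replicate arrays, it is not known which neighbours in this order differ beyond biological spread.

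**Figure D2:**
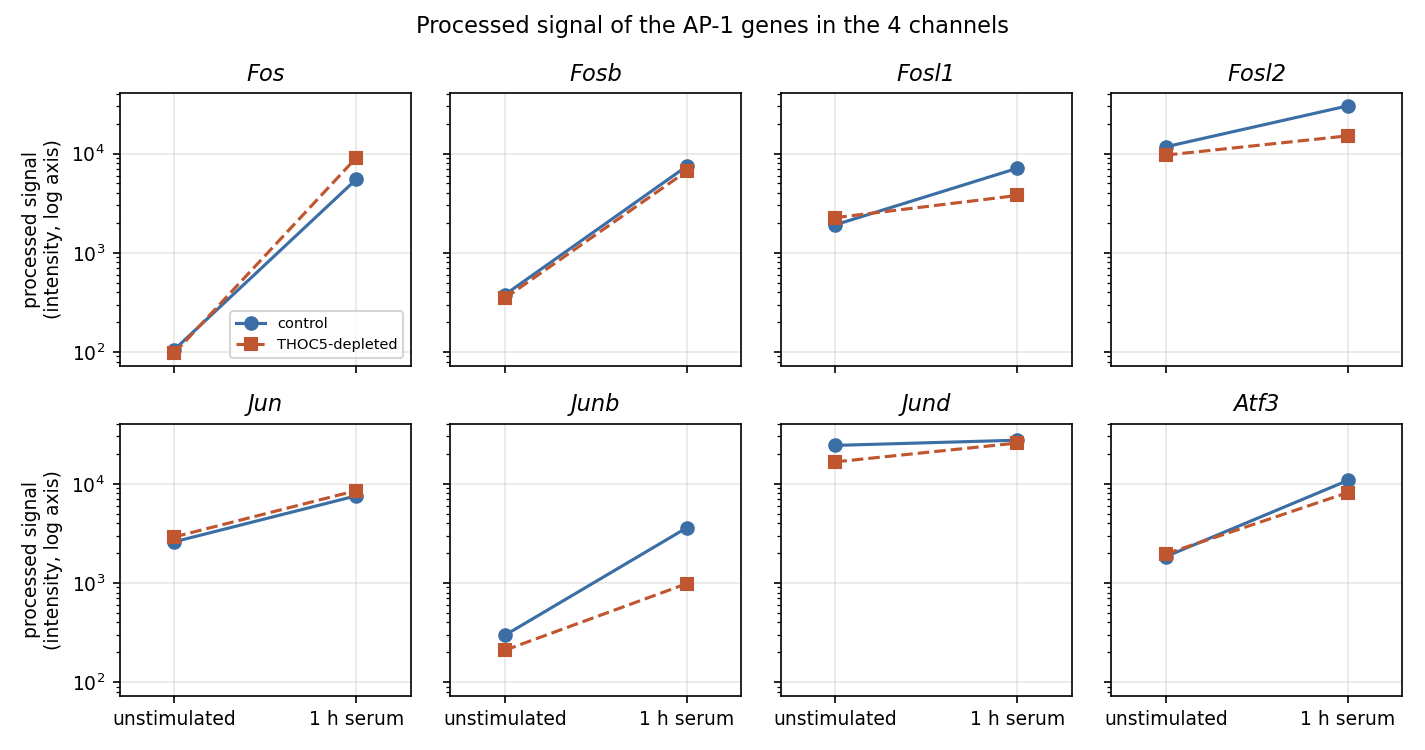
Processed signal (intensity, log axis) of each AP-1 gene in unstimulated cells and after 1 h of serum, in control cells (circles, solid line) and THOC5-depleted cells (squares, dashed line), 1 array each. The lines of Fosb and Jun nearly coincide, Fos ends higher in THOC5-depleted cells, and Junb, Fosl1 and Fosl2 end lower.

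The serum response of the 2 conditions was compared by the fold reduction, the ratio in control over that in THOC5-depleted cells. The members did not behave alike. Junb, Fosl1, Fosl2 and Atf3 had a fold reduction of 1.3 or more (8.97% of the 18005 genes tested on both arrays), Junb and Fosl1 had one above 2 (1.38%), and for Fos and Jund the ratio was larger after depletion by 1.3-fold or more (11.4%). Fosb and Jun differed little. The median fold reduction of the 8 members was 1.21, against 0.994 over all genes. The count of 4 rests on taking the ratios of each array as they stand: when the log ratios of both arrays were scaled to one spread, no member reached 1.3, the values of Fosl1 and Fosl2 were 1.26 and 1.07, and those of Junb (0.703), Atf3 (0.493) and Fosb (0.142) turned to the opposite direction. All genes then had a share of 8.28% at 1.3 or more. The scaling made the median absolute log2 ratio over all probes equal, which was 0.27 in control cells and 0.14 after depletion. All probes include those not well above background. Over the genes tested, the SD of the log2 ratio was 0.53 in control cells and 0.35 after depletion, and a scaling to these SDs was not run.

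The responding members were also set beside other genes with a serum response on average over both arrays. A geometric mean of the 2 serum ratios of 2 or more, with a Cy5 signal above 200 on both arrays, was found for 154 genes, 7 of them AP-1 members. This set was chosen after seeing the data. The log2 ratios of all genes had an SD of 0.53 in control cells and 0.35 after depletion, so the control array weighed more in this choice, and the shares below are partly fixed by it and serve as a description. The median fold reduction was 1.94 over the 154 genes and 1.41 over the 7 members. It was 1.3 or more for 84.4% of the genes and 4 of the members (Junb, Fosl1, Fosl2 and Atf3), and above 2 for 46.1% of the genes and 2 of the members (Junb and Fosl1). A ratio larger after depletion by 1.3-fold or more was found for 3 of the 154 genes (1.95%), which were Klf2, a Krüppel-like transcription factor, Dusp1, a MAP kinase phosphatase, and Fos. With the scaling to one spread, the share of the 154 genes at a fold reduction of 1.3 or more was 20.8% and their median was 0.938, below equal ratios, so the smaller responses of this set also rest on taking each array as it stands. Counted from the lowest fold reduction without that scaling, Fos ranked 3 of 154, Jun 14, Fosb 16, Atf3 35, Fosl2 53, Fosl1 96 and Junb 115. Choosing genes by a ratio of 2 or more and a Cy5 signal above 200 in control cells alone gave 280 genes, of which 89.6% had a fold reduction of 1.3 or more, 43.6% one above 2 and 0.714% a ratio larger after depletion by 1.3-fold or more. That choice uses the numerator of the fold reduction and so likewise partly fixes these shares, and nothing is read from either set about the members.

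**Figure D3:**
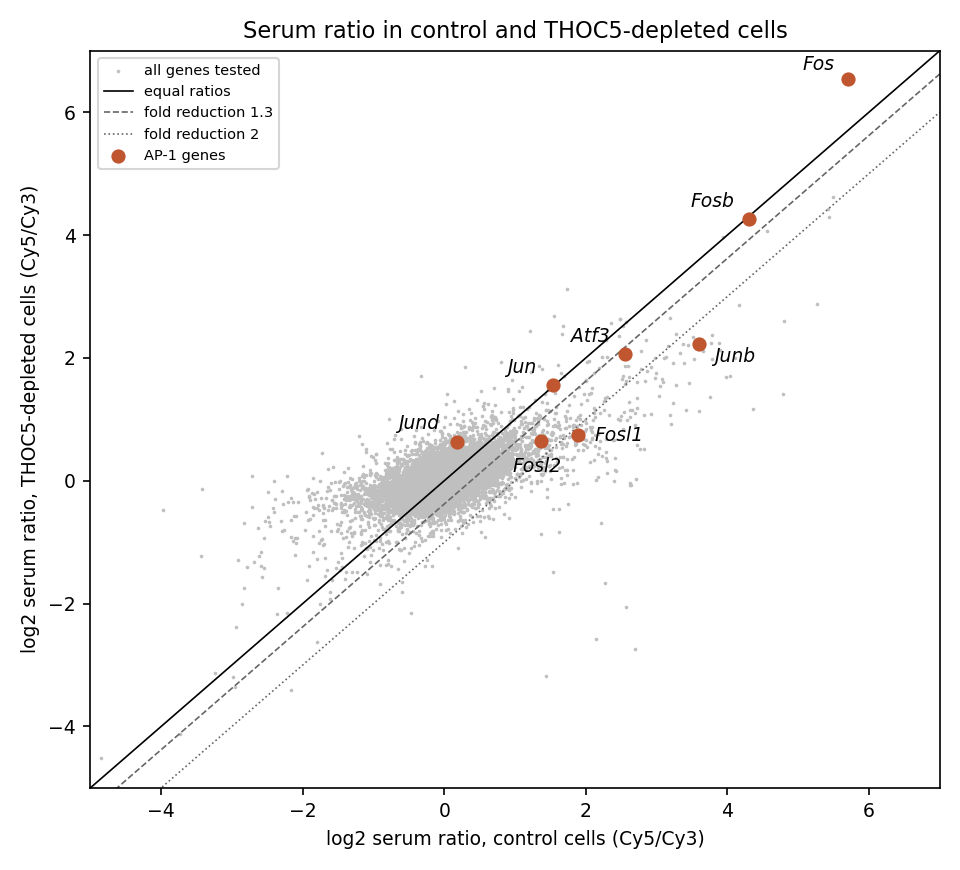
The log2 serum ratio (Cy5 over Cy3) in THOC5-depleted cells against that in control cells for all 18005 genes tested on both arrays (grey) and the AP-1 genes (orange), with lines of equal ratios and of fold reductions of 1.3 and 2. Fos lies above the line of equal ratios, Fosb and Jun lie on it, and Junb and Fosl1 lie below the line of a fold reduction of 2.

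Fos, the cellular homologue of a viral oncogene, is a classical immediate early gene whose protein binds DNA as a dimer with a Jun protein. The Fos probe (chr12:86817900-86817959 in mm9, plus strand) was printed as 10 spots. Its signal was 105 before and 5495 after serum in control cells, and 97.1 before and 9071 after serum in THOC5-depleted cells. The serum ratio was 52.2 in control cells and 93.4 after depletion, 1.79-fold higher after depletion. Over the 10 spots the ratio ran from 46.3 to 55.3 (SD 2.60) in control cells and from 87.7 to 98.2 (SD 3.30) in THOC5-depleted cells, so the spots of the 2 arrays did not overlap. Spots are repeat measurements of the same RNA and not replicates. When the THOC5-depleted array was lowered by the spike-in difference, the Fos ratio remained larger there, with a fold reduction of 0.665. The size of the Fos ratio depended on the processing. With another background correction and dye normalization (normexp and loess), its log2 value was 5.19 in control cells, in place of 5.71. After depletion it was 6.01, in place of 6.55.

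Fosb encodes a close relative of Fos that is induced along with it. Its signal (chr7:19888168-19888227, minus strand) was 377 and 7455 in control cells before and after serum, and 348 and 6650 in THOC5-depleted cells. Serum ratios were 19.8 in control cells and 19.1 after depletion, a fold reduction of 1.03. The difference in log2 ratio, -0.05, was close to the combined spot SD of 0.041, which holds no error between arrays. Fosb and Fos were the members with the largest ratios on both arrays, and neither had a smaller response after depletion by the 1.3-fold limit.

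Fosl1 (Fra-1) and Fosl2 (Fra-2) are Fos relatives that lack the transactivation domain of Fos, and are known to appear later than Fos after serum. Fosl1 (chr19:5455496-5455555, plus strand) had signals of 1917 and 7118 in control cells and of 2261 and 3786 in THOC5-depleted cells. The ratios were 3.71 and 1.67, a fold reduction of 2.22. Its signal was higher before serum and lower after serum in THOC5-depleted cells.

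Fosl2 was read by 2 probes that start 4988 bases apart. The brighter one (chr5:32460076-32460135, plus strand) gave signals of 11731 and 30339 in control cells and of 9671 and 15124 in THOC5-depleted cells, with serum ratios of 2.59 and 1.56 and a fold reduction of 1.65. The dimmer one (chr5:32455088-32455147) gave 56.9 and 142 in control cells and 62.5 and 75.5 in THOC5-depleted cells, with ratios of 2.50 and 1.21 and a fold reduction of 2.07. Both probes had a smaller ratio after depletion, on either side of the limit of 2.

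Jun is the Jun protein with the strongest transactivation and can act as a homodimer. The Jun probe (chr4:94716928-94716987, minus strand) had signals of 2597 and 7550 in control cells before and after serum, and of 2908 and 8524 in THOC5-depleted cells. The ratio was 2.91 in control cells and 2.93 after depletion. The difference in log2 ratio, 0.01, was below the combined spot SD, which holds no error between arrays. Jun had the smallest difference in ratio among the 8 members, and its fold reduction lay on either side of 1 under other settings, from 0.484 with the scaling to one spread to 1.18 with the spike-in shift.

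Junb is often described as a weaker activator that can oppose Jun. Junb (chr8:87501881-87501940, minus strand) had signals of 296 and 3592 in control cells and of 209 and 982 in THOC5-depleted cells. This gave serum ratios of 12.1 and 4.70, a fold reduction of 2.58, the largest among the members. Junb nonetheless still ranked 20 of 11534 by its serum ratio in THOC5-depleted cells. Besides the scaling to one spread and the spike-in shift there were 7 alternatives, of which 3 left every member as it was. Under the 4 that moved members, the fold reduction of Junb lay between 2.53 and 2.65. With the spike-in shift it was 3.07, and with the scaling to one spread it was 0.703, in the opposite direction.

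Jund is the Jun family member that is known to be present in quiescent fibroblasts. Its signal (chr8:73224436-73224495, plus strand) was 24371 and 27504 in control cells and 16631 and 25744 in THOC5-depleted cells. The ratio was 1.13 in control cells and 1.55 after depletion, 1.37-fold higher after depletion. Jund was the member whose ratio stayed under 2 on both arrays. With the spike-in difference taken off, the ratio was 1.15-fold higher after depletion, under the limit of 1.3.

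Atf3 is a stress-responsive member of the ATF/CREB branch that acts as a repressor when it pairs with itself. Its probe (chr1:192994547-192994606, minus strand) had signals of 1843 and 10800 in control cells and of 1960 and 8149 in THOC5-depleted cells. The serum ratio was 5.86 in control cells and 4.16 after depletion, a fold reduction of 1.41 and a difference in log2 ratio of -0.50. With the scaling to one spread the fold reduction was 0.493, in the opposite direction. Over 11385 genes with a Cy5 signal above 200 on both arrays, the quartiles of the difference in log2 ratio, without that scaling, were -0.14 and 0.16. Atf3 and, at 0.46, Jund lay outside them on opposite sides. Fos, Fosl1, Fosl2 and Junb also lay outside. Quartiles leave a large share of genes outside by definition, so this is not particular to the members.

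Each fold reduction was then split into the unstimulated and the stimulated signal, compared between the arrays after quantile normalization of the mean signals (limma, Aquantile). In unstimulated cells, no member differed by 1.5-fold or more (14.5% of 19043 genes did, 7.51% being lower and 6.96% higher after depletion). In stimulated cells 3 members did, against 15.6% of 18664 genes. Junb was 3.02-fold lower in THOC5-depleted cells, at -1.60 on the log2 scale, and Fosl2 was 1.62-fold lower, at -0.70 (7.21% of genes were lower). Fos was 2.02-fold higher (8.44% of genes were higher). For Junb, Fosl2 and Fos, the difference thus lay mainly in the stimulated signal.

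Fosl1 had differences of opposite sign, 0.57 before and -0.58 after serum, just inside the limit of 1.5-fold on both sides. After serum it passed the limit in 3 of the 7 alternatives, and 4 members then differed by 1.5-fold or more. It was at -0.64 with another background correction and dye normalization (normexp and loess). With each channel scaled to its 75th percentile it was at -0.63, and with signals as deposited at -0.91. Before serum, Fosl1 was at 0.24 with signals as deposited. Atf3 was higher before serum, at 0.43, and nearly equal after it, at -0.07, but with signals as deposited it was at 0.09 before and -0.41 after serum, so the channel that held its smaller ratio depends on the scaling. Jun was higher by about the same amount before (0.49) and after serum (0.51). Jund was lower before serum (-0.27) and higher after it (0.18), and Fosb was slightly higher at both (0.18 and 0.13). These between-array values depend on the scaling. With signals as deposited, the median of all genes moved to -0.17 before and -0.21 after serum, and the small values of Fos and Fosl2 before serum, of Fosb before and after serum and of Jund after serum took the opposite sign under that setting.

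**Figure D4:**
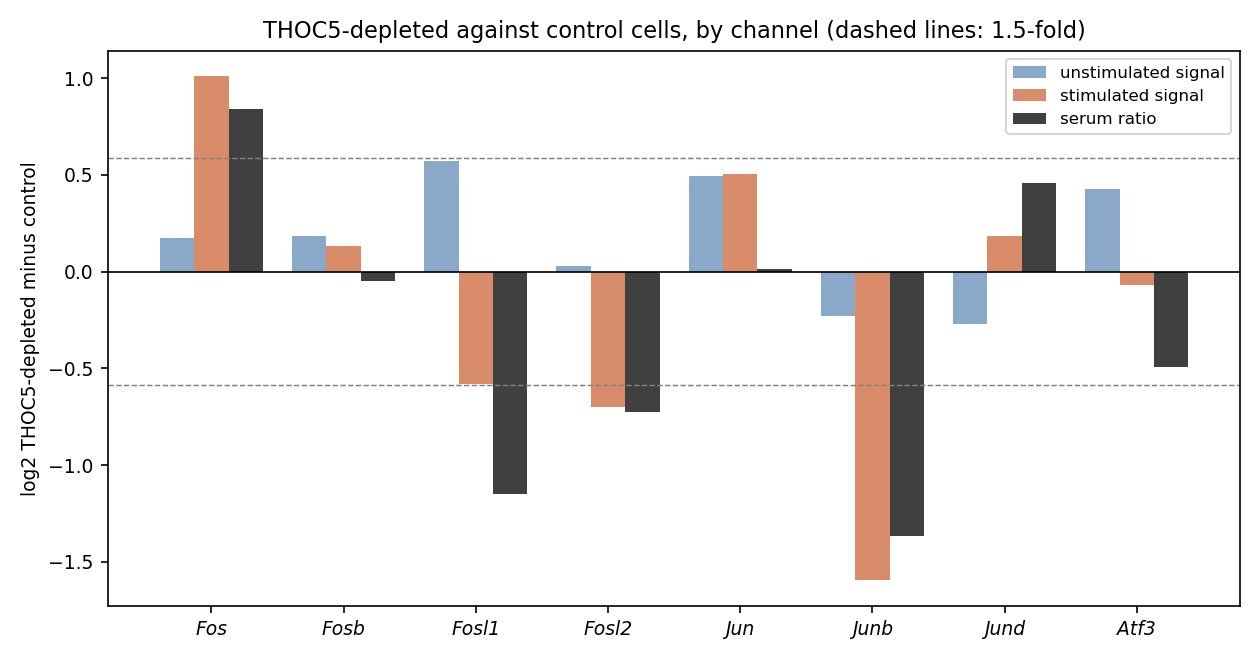
Log2 difference of THOC5-depleted minus control cells for the unstimulated signal, the stimulated signal and the serum ratio of each AP-1 gene, with dashed lines at 1.5-fold. Bars of the unstimulated signal stay within the dashed lines, while the stimulated signal of Junb reaches -1.60 and that of Fos lies above the upper line.

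Genes that act with AP-1 were counted by list. Among 21 bZIP partners tested, 3 reached a serum ratio of 2 and 1 was at 0.5 or less in control cells, and none did either after depletion. The small Maf proteins Maff (4.26 in control cells and 1.84 after depletion) and Mafk (3.11 and 1.64) and the repressor Bach1 (2.04 and 1.42) were higher after serum in control cells, and Cebpd was lower (0.438 and 0.897). The median ratio of this list was 1.31 in control cells and 1.23 after depletion. A fold reduction of 1.3 or more was found for 7 of the 21 genes, where it was found for 8.97% of all genes tested. With the scaling to one spread it was found for 1 of the 21.

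Upstream components were largely flat. Of 9 genes for SRF, its cofactors and MEF2 proteins, Srf reached a ratio of 2 (2.49 in control cells and 1.89 after depletion). The median ratio of this list was 1.10 and 1.04. A fold reduction of 1.3 or more was found for 3 of the 9, against 8.97% of all genes. With the scaling to one spread it was found for 2 of the 9, against 8.28% of all genes. Of 22 genes of the MAP kinase cascade, Map2k3, a kinase upstream of p38, reached 2 (2.67 and 1.22), the median was 0.993 and 0.965, and 3 had a fold reduction of 1.3 or more, close to the share of 8.97% over all genes. Of 13 genes for turnover of Fos and Jun mRNA and protein, Zfp36, which binds AU-rich elements and promotes mRNA decay, had ratios of 4.05 and 3.83, and none had a fold reduction of 1.3 or more. The median of that list was 0.993 in control cells and 1.03 after depletion.

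Known AP-1 targets mostly had smaller serum ratios in THOC5-depleted cells, with a median fold reduction of 1.75. This list was chosen with earlier results of these data known, so its counts serve as a description. Of 24 tested, 15 reached a serum ratio of 2 in control cells (2.89% of all genes) and 3 after depletion (1.22%), and 18 had a fold reduction of 1.3 or more (8.97% of all genes, and 84.4% of the 154 serum-responsive genes, a share partly fixed by how they were chosen). Their median ratio was 2.73 and, after depletion, 1.40. With the scaling to one spread, 6 of the 24 had a fold reduction of 1.3 or more (8.28% of all genes and 20.8% of the 154) and the median was 1.10. Ptgs2 (an inducible cyclooxygenase) had ratios of 13.8 and 5.20, the cytokine Il11 13.6 and 2.58, the EGF receptor ligand Hbegf 8.24 and 2.90, and the matrix metalloproteinase Mmp10 6.52 and 1.02. Under that scaling Il11 (1.75), Mmp10 (3.75) and Hbegf (1.04) kept a fold reduction above 1, and Ptgs2 (0.669) did not. Signals of Mmp10 were 38.0 and 248 in control cells and 44.9 and 45.8 in THOC5-depleted cells. Binding of AP-1 was not measured in these data.

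Other immediate early transcription factors were compared with the AP-1 genes. Egr1 had ratios of 15.4 in control cells and 15.7 after depletion, a fold reduction of 0.980. Egr2 had 45.0 and 24.6, and the nuclear receptors Nr4a1 and Nr4a2 had 43.0 and 21.5 and 3.93 and 2.65. Egr3 was not well above background before serum, and its ratio was at least 5.17 in control and at least 1.96 in THOC5-depleted cells. Egr4 was well above background in stimulated control cells alone, with a ratio of at least 4.43 there, and Nr4a3 in no channel. Of the 4 genes measured in all channels, 3 had a fold reduction of 1.3 or more (8.97% of all genes and 84.4% of the 154), which was 1.83 for Egr2, 2.00 for Nr4a1 and 1.48 for Nr4a2, and Egr1 lay with Fosb and Jun near equal ratios. With the scaling to one spread, none of the 4 reached 1.3.

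**Figure D5:**
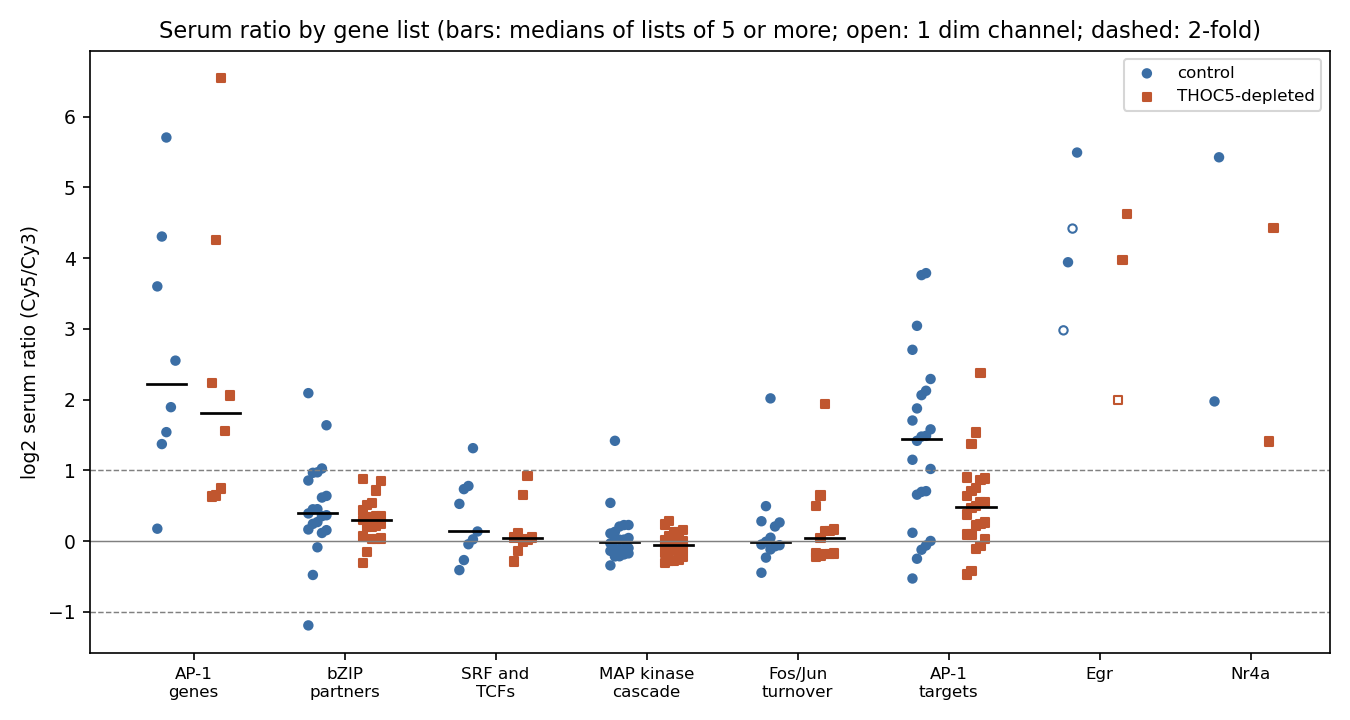
Log2 serum ratio of the AP-1 genes and of 7 gene lists in control cells (circles) and THOC5-depleted cells (squares), with medians as bars for lists of 5 or more genes, dashed lines at 2-fold and open symbols where a channel was not well above background. The AP-1 targets lie lower in THOC5-depleted cells (median ratio 1.40) than in control cells (2.73), and the MAP kinase cascade lies near 0 in both.

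For each member with a ratio of 4 or more in control cells, the most similar gene outside the members was found among 11377 genes by the distance between their pairs of log2 ratios (2 values per gene, 1 from each array). Junb was nearest to Phlda1 (ratios of 12.6 and 4.34, distance 0.13) and Atf3 to Rcan1 (5.86 and 3.66, distance 0.18). Fosb was nearest to Arc (23.7 and 16.8, distance 0.32). The nearest gene to Fos was Egr2, at a distance of 1.94, the longest of these 4 distances. The 4 members that passed the filter in control cells were also those with TGACG in the promoter window, while Jun, Fosl2 and Jund lacked it. This is a description of 7 genes, and promoter activity was not measured.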

How the data were processed

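RNA was measured on 2 dual-color arrays. The authors deposited the scanner output of Agilent Feature Extraction (version 10.7.3.1), in which a processed signal is an intensity with the background subtracted and the dyes normalized (linear and LOWESS) within the array. Probe positions are on mm9. The deposited log10 ratios are Cy5 over Cy3, and a table of the series, which has no negative values (log10 scale), served only as an alternative. Of its 44397 features, 85.7% (control) and 86.9% (THOC5-depleted) lay within 0.01 of the size of the log10 ratio, and how the others were made is unknown. The number of columns not mapped to a sample was 0.

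Outlier spots (239 and 234) were left out, and spots of a probe were averaged as log2 values of the deposited intensities. The brightest probe represented a gene. Between arrays, limma 3.58.1 (Aquantile, R 4.3.3) was used, and all else was computed with Python 3.11.15. Where 1 signal was not well above background, the ratio was bounded by the lowest signal that was. Alternatives are given at the end.

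The members and gene lists were chosen with earlier results of these data known. All members were named, with Thoc5, up to 4 genes per list with the largest ratio among those that changed 2-fold or more, and the gene nearest to each member with a ratio of 4 or more. Dusp1 and Klf2 were named after their values were seen. Of the MAP kinase list, 22 of 23 genes were on the arrays used here. Genes under background in every channel of an array were not tested.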

Additional observations from a re-analysis of the deposited data

How the results depend on the processing

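No paired analysis was possible because there was 1 array per condition, and for the same reason no array could be left out. Without dye normalization, where the median log2 ratio of all genes moved to 0.82 in control and 0.75 in THOC5-depleted cells, 7 members (in place of 4) passed the filter of a ratio above 4 and a Cy5 signal above 200 in control cells, and 8 (in place of 5) reached a ratio of 2 after depletion. When the log ratios were given an equal spread on both arrays, 0 members had a fold reduction of 1.3 or more and 0 had one above 2. This scaling was applied to the gene lists and the 154 serum-responsive genes after seeing the data. The other 66 counts stayed within 1.5 times, though single members came and went. The log ratios centred on the median and the shift by the spike-in RNAs were chosen after seeing the data and belong to these 66.

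Apart from the scaling of the spread and the spike-in shift, the fold reduction ran over 7 alternatives (3 of which left every member as it was) from 0.551 to 0.579 for Fos, 1.03 to 1.09 for Fosb, 2.22 to 2.38 for Fosl1, 1.62 to 1.85 for Fosl2, 0.992 to 1.09 for Jun, 2.53 to 2.65 for Junb, 0.717 to 0.771 for Jund and 1.41 to 1.55 for Atf3. Jun therefore has no settled direction. Scaling the spread gave 0.0315 for Fos, 0.142 for Fosb, 1.26 for Fosl1, 1.07 for Fosl2, 0.484 for Jun, 0.703 for Junb, 0.595 for Jund and 0.493 for Atf3. The spike-in shift gave 0.665 for Fos, 1.23 for Fosb, 2.64 for Fosl1, 1.97 for Fosl2, 1.18 for Jun, 3.07 for Junb, 0.868 for Jund and 1.68 for Atf3. Of 240 serum log2 ratios and between-array differences of single members, 90 moved by more than the spread between spots. A change of sign was seen for 5 between-array differences, each under 1.5-fold and each with signals as deposited, and for none of the serum ratios. The limit (2-fold for serum ratios, 1.5-fold between arrays) was newly passed by 8 values and lost by 1, that of Fosl2 in control cells (0.99 on the log2 scale with one spread). All probes of the members were well above background, but the size of the Fos ratio moved with the background correction and dye normalization. The number of arrays limited every comparison.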

Other observations

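The promoter windows of the members were GC-rich except for Jund. The share of G and C was 58.7% in Fos, 60.0% in Jun, 64.7% in Atf3 and Fosl2, 65.3% in Junb, 68.3% in Fosb and 46.7% in Jund, against a median of 52.7% over all promoters. The log2 serum ratios of the 2 arrays correlated with r = 0.495 over all 28233 genes, including those not well above background. Both arrays share the array design and the dye assignment.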
